A study of Mus musculus with 15 samples.

Results

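Intergenic H3K4me3 peaks with histone acetylation were the merged H3K4me3 peaks on autosomes that were narrower than 3500 bp, shared at least 1 bp with both a merged H3K27ac peak and a merged H3K9ac peak, and lay more than 3 kb from the span of every RefSeq gene of GRCm38. Of the 17931 merged autosomal H3K4me3 peaks, 1705 met all conditions. The members were selected on their H3K4me3 width, their H3K27ac and H3K9ac overlap and their position, so these properties are given as descriptions without a test. ATAC-seq, H3K36me2 and H3K27me3 were not used to choose them. The data came from EL4, a T lymphoma cell line of C57BL/6N mouse origin kept in culture without treatment. H3K4me3, H3K27ac, H3K9ac, H3K36me2 and H3K27me3 were mapped by ChIP-seq (chromatin fragments recovered with an antibody to the mark and sequenced) and accessible chromatin by ATAC-seq (fragments cut out of open chromatin by a transposase), each with 2 replicates that the methods call technical. All cells were of 1 line and 1 condition. The spread between replicates therefore describes library preparation and peak calling only, and no result can be extended to other T cells. Each replicate contributed a list of called intervals with no score and no read count, so the depth behind a peak is unknown. The H3K4me3 lists held 18577 and 18127 intervals, the 2 ATAC-seq lists 17519 and 19255, and the H3K36me2 lists 38897 and 40826.

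H3K4me3 is laid down by the SET1 and MLL methyltransferase complexes and is known for its accumulation around active transcription start sites. H3K27ac and H3K9ac are placed by histone acetyltransferases at active promoters and enhancers. Distal enhancers usually carry little trimethylation of lysine 4, so an acetylated H3K4me3 peak far from any annotated gene can belong to a strong enhancer or to a start site missing from the annotation. H3K36me2, made mainly by NSD family enzymes, covers broad domains inside and outside genes. A primary microRNA transcript often starts many kilobases upstream of its hairpin, and the start is rarely part of the microRNA's own annotation.

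The labelled cell type was checked first at the markers of 3 lineages. H3K4me3 and H3K27ac peaks were both present at 7 of 8 T cell markers, with Cd247 as the exception, at 1 of 5 B cell markers (Cd79a) and at 2 of 5 myeloid markers (Spi1 and Lyz2). Cd3e, Cd3d, Cd3g, Lck, Zap70, Tcf7 and Bcl11b carried both marks. For scale, 10011 of 20665 autosomal protein-coding genes had H3K4me3 at a gene end, a term defined below. Lists of 5 genes are too short to tell the B cell and myeloid counts from that share. The T cell count was not tested against it.

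A microRNA was the nearest gene of 14 members. These loci were chosen after their values were seen, because a microRNA was nearest. Of the 14, 9 lay upstream of the hairpin, 3 downstream, and 2 had a nearest hairpin without a known strand. Mature sequences from RefSeq (GRCm38.p6) show which microRNAs lie next to the members, with the seed, bases 2 to 8 counted from the 5′ end, in capitals. On chromosome 14, the largest cluster had 18 members, most of them nearest to a lncRNA gene. It ended 4517 bp upstream of Mir17, the first hairpin of the miR-17-92 group, a polycistron known as an oncogene in lymphoma. Its microRNAs miR-17-5p and miR-20a-5p share 1 seed and miR-19a-3p and miR-19b-3p share another:
mmu-miR-17-5p: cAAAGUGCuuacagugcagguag
mmu-miR-20a-5p: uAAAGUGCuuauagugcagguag
mmu-miR-18a-5p: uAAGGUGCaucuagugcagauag
mmu-miR-19a-3p: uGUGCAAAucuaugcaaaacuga
mmu-miR-19b-3p: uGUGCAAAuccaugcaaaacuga
mmu-miR-92a-3p: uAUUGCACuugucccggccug

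On chromosome 11, a pair of members lay upstream of Mir146, which encodes miR-146a, a negative regulator of inflammatory signalling, and on chromosome 13 another pair lay upstream of the hairpins of let-7a-1, let-7f-1 and let-7d, whose 5p products share 1 seed. On chromosome 8, a pair lay upstream of Mir23a, Mir27a and Mir24-2:
mmu-miR-146a-5p: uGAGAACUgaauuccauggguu
mmu-let-7a-5p: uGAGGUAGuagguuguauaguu
mmu-let-7f-5p: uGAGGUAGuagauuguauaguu
mmu-let-7d-5p: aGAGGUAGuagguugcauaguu
mmu-miR-23a-3p: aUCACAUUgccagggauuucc
mmu-miR-27a-3p: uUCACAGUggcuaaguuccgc
mmu-miR-24-3p: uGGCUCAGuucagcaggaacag

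The Mir146 pair was marked in every list of the active marks. The nearer member, chr11:43383588-43386194, started 9126 bp upstream of the hairpin and was 2607 bp wide. H3K4me3 intervals covered 2575 bp of it in replicate 1 and 2592 bp in replicate 2, H3K27ac 1979 and 1742 bp, H3K9ac 1456 and 1371 bp, and ATAC-seq 515 and 228 bp. The other member, chr11:43387342-43388957, lay 12880 bp upstream and held ATAC-seq intervals of 447 and 402 bp. No H3K4me3, H3K27ac or ATAC-seq peak lay within 3 kb of the hairpin itself.

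The let-7 locus looked alike in this respect, with no peak of these 3 kinds within 3 kb of any of its 3 hairpins. The member chr13:48544869-48547048, 6596 bp upstream of Mirlet7a-1, was covered by H3K4me3 over 2180 and 2111 bp of its 2180 bp, and by ATAC-seq over 1213 and 1318 bp. Accessible chromatin thus reached over much of this member in both replicates. The second member, chr13:48552025-48553040, had both acetylations in both replicates and no ATAC-seq interval in either. H3K36me2 was called at neither of them.

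At Mir23a, the nearer member chr8:84197164-84198793 lay 9724 bp upstream of the hairpin. H3K4me3 covered 1630 and 1621 bp of its 1630 bp, ATAC-seq 1093 and 1405 bp, and H3K36me2 993 and 793 bp. It therefore carried all 5 features in both replicates. The other member, chr8:84186550-84187654, lay 20863 bp upstream of Mir23a and 7588 bp from Mir181c, with ATAC-seq over 375 and 379 bp and no H3K36me2. Neither was the H3K4me3 peak closest to the hairpin. A peak of 4338 bp, over the width limit, lay from 3.922 to 8.26 kb upstream, with H3K27ac, H3K9ac and 4 ATAC-seq peaks, and within 3 kb of the hairpin there were 1 H3K4me3 peak and 2 H3K27ac peaks.

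The Mir17 cluster spanned chr14:114874929-115039153, a stretch of 164 kb between the lncRNA gene Gm31003 and Mir17. Its 18 members were 210 to 2478 bp wide with a median of 800.5 bp, and 16 of them were marked by H3K4me3, H3K27ac and H3K9ac in both replicates. ATAC-seq touched 6 of the 18 and H3K36me2 3 of the 18. The member nearest to Mir17, chr14:115038523-115039153, had ATAC-seq intervals over 204 and 330 bp of its 631 bp. The widest, chr14:114971929-114974406, had H3K4me3 over 2478 and 2297 bp and ATAC-seq over 325 and 386 bp, 69264 bp upstream. Within 3 kb of the Mir17 hairpin lay 2 further H3K4me3 peaks, 3 H3K27ac peaks and 1 ATAC-seq peak. One of these H3K4me3 peaks was 5942 bp wide and spanned the hairpin, which left it outside the rule by both width and position, and the other was 479 bp wide and too close to a gene. The lncRNA genes 1700100I10Rik and Gm31072 lay between members of the cluster. Mir17 was the nearest gene only of the members within 24609 bp of it. The others were nearest to a lncRNA gene, the widest to Gm31072 at 23632 bp.

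**Figure D1:**
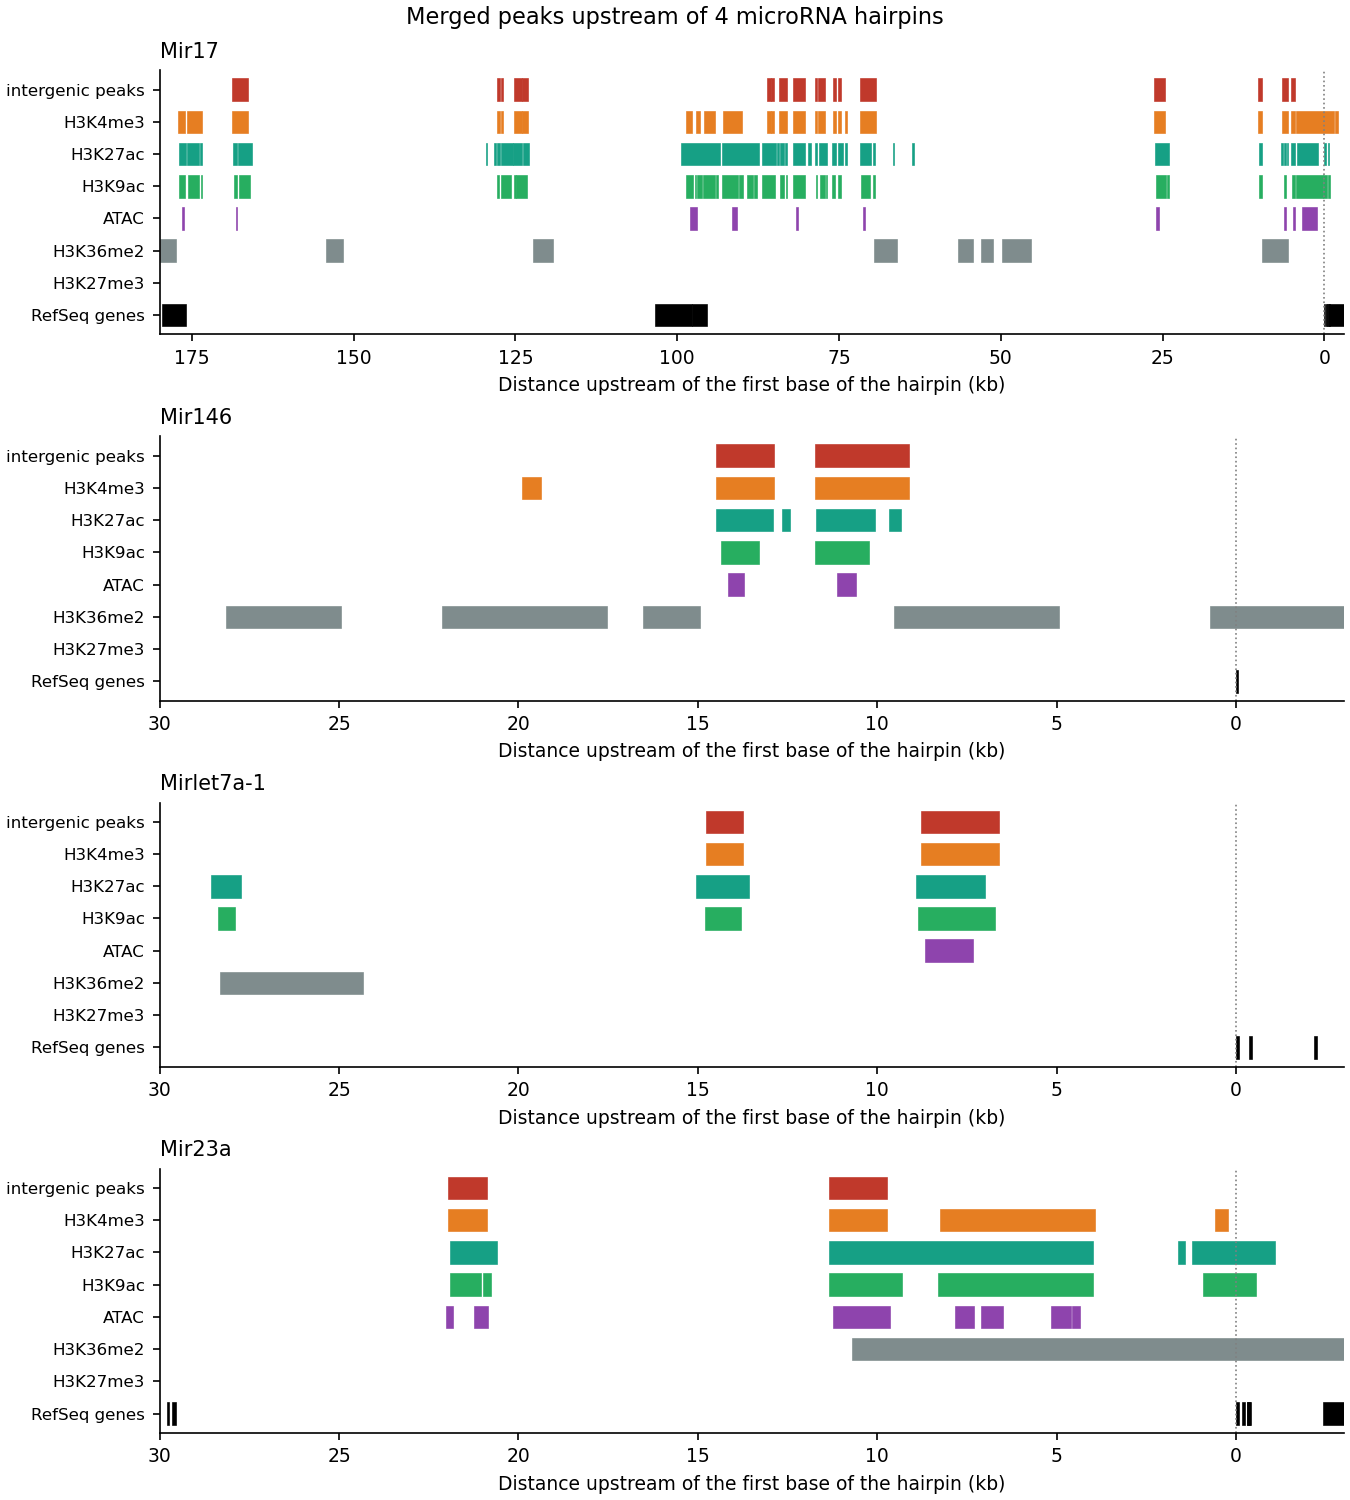
Merged peaks of each assay by distance upstream of 4 microRNA hairpins, in kb, with transcription running to the right. Red bars are intergenic acetylated H3K4me3 peaks, coloured and grey bars below them are the merged peaks of each assay, and black bars are RefSeq genes. The Mir17 cluster holds 18 members over 164 kb, and the other loci hold 2 members each, with the nearest 9126 bp (Mir146), 6596 bp (Mirlet7a-1) and 9724 bp (Mir23a) upstream.

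Members were also found next to Mir30d, at 19513 bp (chr15:68360803-68363916, with ATAC-seq over 1157 and 937 bp of its 3114 bp), and on the downstream side of Mir7218 and Mir7688. MicroRNA genes as a class were not often next to a member: 15 of 1136 were the next gene on either side (1.32%), against 4.83% of all autosomal RefSeq genes. A hairpin inside the span of another gene cannot be the next gene by this definition, and such hairpins were not counted apart.

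The intergenic members were narrow. Their median width was 851 bp (quartiles 517 and 1306 bp, range 200 to 3475 bp), compared with 1761 bp (1319 and 2247 bp) for the 9503 peaks of the same width limit and acetylation at a gene end, defined as reaching from 3 kb before to 2 kb past a gene's border. The 3299 peaks in gene interiors had a median of 938 bp (537 and 1513 bp), close to that of the members. The 2 members just under the width limit were 3463 and 3475 bp wide, and the 2 intergenic acetylated peaks just over it 3516 and 3519 bp. At the distance limit, the 2 members nearest to a gene lay 3007 and 3008 bp away, and the 2 acetylated peaks just inside it 2979 and 2993 bp. Of all 2350 intergenic H3K4me3 peaks under 3500 bp, 218 touched H3K27ac alone, 58 H3K9ac alone and 369 neither. Another 34 intergenic peaks had both acetylations and were 3500 bp or wider.

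**Figure D2:**
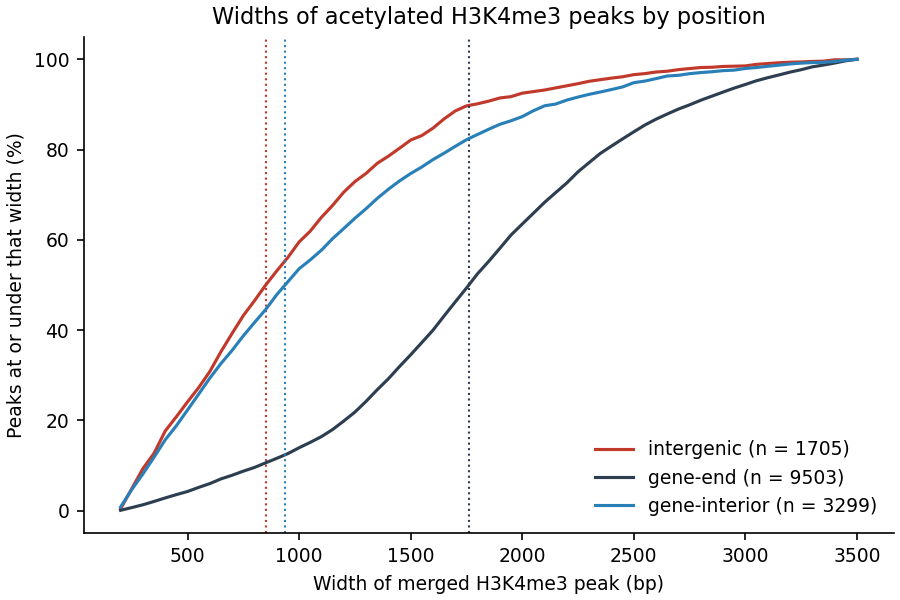
Cumulative share of acetylated H3K4me3 peaks (y axis, %) at or under each width (x axis, bp) for the 1705 intergenic, 9503 gene-end and 3299 gene-interior peaks. Dotted lines are the medians, 851, 1761 and 938 bp. The intergenic and gene-interior curves run close together and left of the gene-end curve.

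Most members were called in both replicates. H3K4me3 intervals of both replicates touched 1560 members (91.5%), H3K27ac intervals of both 1659 and H3K9ac intervals of both 1553, and all 3 marks were present in both replicates at 1419 members (83.2%). At gene-end peaks this last share was 96.5% and at gene-interior peaks 83.3%. H3K27ac intervals covered 89.9% of the base pairs of the members, 82.8% at gene ends and 89.0% in gene interiors. At the median member H3K27ac spanned the whole H3K4me3 peak (100%), as it did at the median gene-interior peak (100%), whereas at the median gene-end peak it spanned 84.7%. The gene-end peaks were also wider (median 1761 bp against 851 bp in members), and the part of width in this contrast was not tested.

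By chromosome, members numbered 42 on chromosome 19 to 137 on chromosome 1. As a share of the acetylated H3K4me3 peaks under 3500 bp on the same chromosome, they ranged from 7.48% on chromosome 7 to 19.9% on chromosome 18.

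ATAC-seq peaks touched 1085 of the 1705 members, or 63.6% (95% Wilson interval 61.3 to 65.9%, which covers counting error only). Among all 17931 autosomal H3K4me3 peaks this share was 74.7%. In the single lists it was 54.1% in replicate 1 and 59.1% in replicate 2 (56.6% ± 3.53, SD, n = 2). ATAC-seq intervals of both replicates touched 844 members, 49.5%, where 65.4% of all autosomal H3K4me3 peaks had them. The remaining members included 241 with an interval in 1 replicate and 620 with none.

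The members were less often accessible than peaks at gene ends. Averaged over the 19 autosomes, 62.9% of the members and 88.3% of the gene-end peaks touched an ATAC-seq peak, and the difference of -25.4 percentage points (SD over autosomes 8.33) had the same direction on 19 of 19 autosomes (2-sided sign-flip permutation test, p = 1e-05, the smallest that 100000 flips can give, adjusted p = 6e-05). Against gene-interior peaks, with 66.3%, the difference was -3.40 points, with 12 of 19 autosomes below (adjusted p = 0.102 in the same permutation test). It did not pass the threshold of 0.05. Autosomes here are positions in the same libraries and not biological replicates.

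The share with ATAC-seq was higher in wider peaks of each set, and the members were narrower than the gene-end peaks. Among members it was 50.4% under 500 bp, 57.6% from 500 to 1000 bp, 72.6% to 1500 bp, 78.5% to 2000 bp and 86.7% above. The gene-end peaks rose from 44.4% to 97.3% over the same bands, and the gene-interior peaks from 44.3% to 88.8%. When the gene-end peaks of each autosome were weighted to the widths of the members there, a comparison added after the data were examined, the difference became -6.48 points (adjusted p = 0.0175 in the permutation test). With peaks of 500 to 1500 bp only, it was -15.0 points (adjusted p = 0.00015, permutation test). Width was not held equal within that range. From 500 to 1000 bp lay 604 members and 922 gene-end peaks, and from 1000 to 1500 bp 387 and 1955. The shares with ATAC-seq were 57.6% against 61.5% in the first band and 72.6% against 86.0% in the second.

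H3K36me2 peaks touched 822 members, 48.2% (95% Wilson interval 45.8 to 50.6%), against 51.1% of all autosomal H3K4me3 peaks. The single lists gave 38.5% and 36.1% (37.3% ± 1.74, SD, n = 2). H3K36me2 covered 508 members whole and 314 in part. Members with H3K36me2 touched ATAC-seq in 555 of 822 cases (67.5%) and those without it in 530 of 883 (60.02%). The difference was not tested.

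The members carried H3K36me2 less often than gene-interior peaks did. The mean over autosomes was 48.0% for members and 61.3% in gene interiors, a difference of -13.3 points that was negative on 17 of 19 autosomes (sign-flip permutation test, adjusted p = 6e-05). Width weighting left it at -13.1 points. Compared with gene ends, where the mean was 50.7%, the difference of -2.73 points was not significant, with 10 of 19 autosomes below (adjusted p = 0.236, permutation test). Here the direction turned when only the 200 bp around the midpoint of each peak were counted, to 6.04 points more often in members (adjusted p = 0.012 in the permutation test).

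H3K27me3, the Polycomb mark of repressed genes, was rare at these peaks. It touched 14 members (0.821%), 7 of them in both replicates, and 1.68% of all autosomal H3K4me3 peaks.

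**Figure D3:**
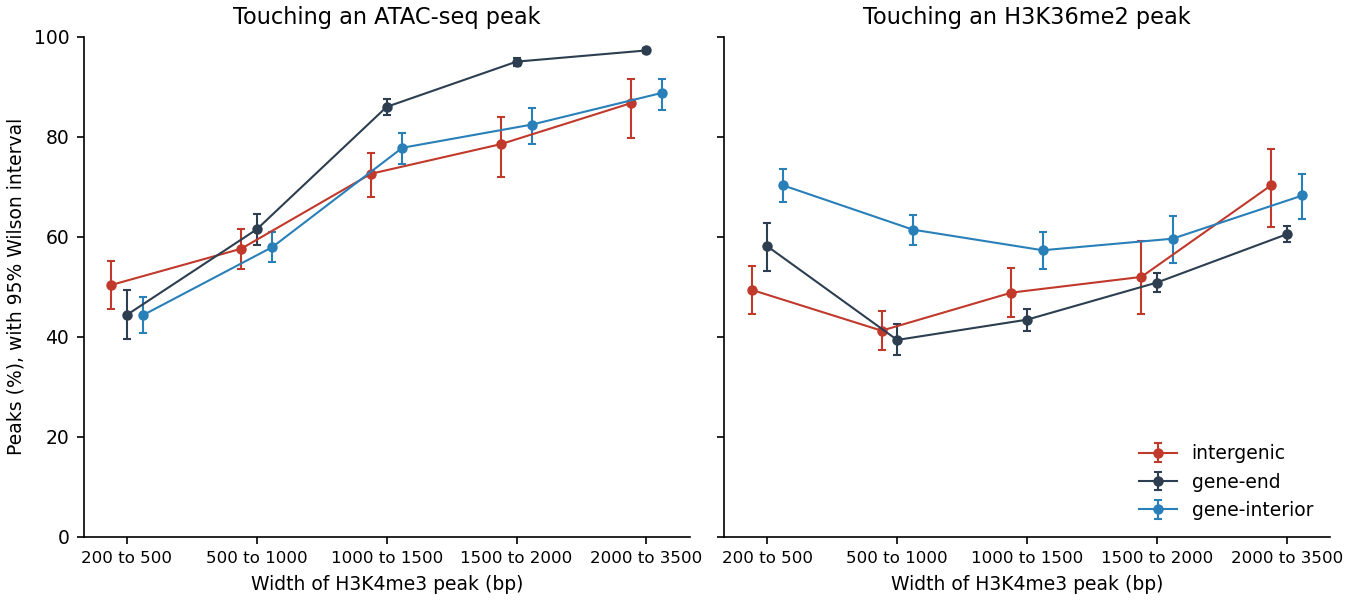
Share of peaks (y axis, %) touching an ATAC-seq peak (left) or an H3K36me2 peak (right) in 5 bands of H3K4me3 width (x axis, bp) for intergenic, gene-end and gene-interior peaks, with 95% Wilson intervals. With ATAC-seq the intergenic peaks rise from 50.4% to 86.7% and stay below the gene-end peaks from 500 bp upward, and with H3K36me2 they lie below the gene-interior peaks in every band but the widest (70.3% against 68.3%).

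Other H3K27ac peaks were common around the members. Counting merged H3K27ac peaks within 50 kb that did not touch the member itself, members had a mean over autosomes of 5.08, gene-end peaks 3.72 and gene-interior peaks 5.61. The difference from gene ends was 1.35 peaks, positive on 18 of 19 autosomes (sign-flip permutation test, adjusted p = 6e-05), and that from gene interiors -0.528 (adjusted p = 0.102). After width weighting the first was 0.185 peaks and no longer significant (adjusted p = 0.633 in the permutation test), and joining intervals up to 1000 bp apart gave 0.241 (adjusted p = 0.00778). Without the members of the 3 largest clusters, the second was -0.775 and passed the threshold (adjusted p = 0.00136, permutation test). Only members were left out there and all gene-interior peaks were kept. The omitted members had many neighbours, 6 to 22 in the Mir17 cluster, so their removal lowers 1 side alone. This pass therefore cannot decide whether members have fewer neighbours. The neighbours come from the same H3K27ac lists that helped to choose the members. No other H3K27ac peak lay within 50 kb of 242 members.

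**Figure D4:**
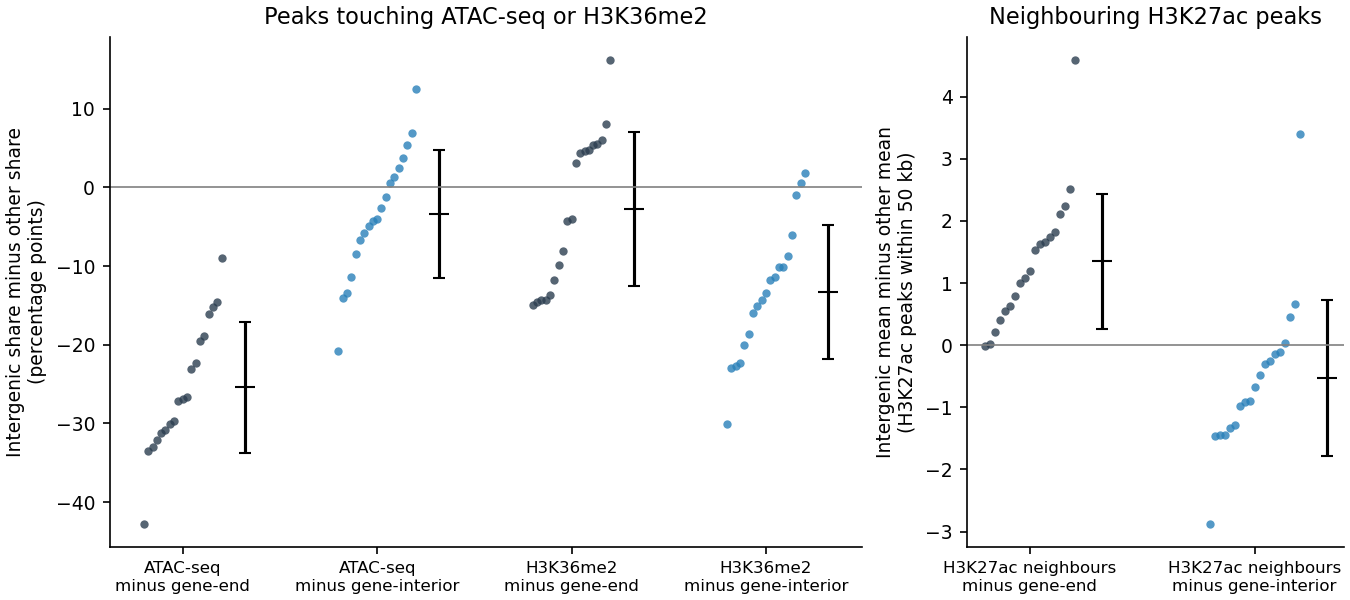
Intergenic minus gene-end (dark) or gene-interior (blue) peaks on each of 19 autosomes, 1 point per autosome, for shares with ATAC-seq and H3K36me2 (left, percentage points) and for the number of H3K27ac peaks within 50 kb (right). Black marks are the mean and SD over autosomes. The ATAC-seq differences from gene ends are negative on all 19 autosomes, with a mean of -25.4 points.

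Members lay alone about as often as near each other. With members joined when at most 50 kb apart, 844 (49.5%) stood alone and 861 fell into clusters, among them 199 pairs, 74 groups of 3 and 21 clusters of 5 or more that held 133 members. ATAC-seq touched 66.0% of the members that stood alone, 61.3% of the clustered ones and 47.4% of those in clusters of 5 or more. H3K36me2 went the other way, with 40.0% alone, 56.2% clustered and 58.6% in clusters of 5 or more. Neighbours in a cluster can share 1 broad H3K36me2 interval, and these differences were not tested.

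After the Mir17 cluster, the 2 next largest had 9 members each and differed in accessibility. On chromosome 5, chr5:60298255-60323222 lay between the pseudogene Cbfa2t2-ps1, 66051 bp away, and the snRNA gene Gm23331, 177610 bp away. None of its 9 members (0) touched ATAC-seq. They included the wide peak chr5:60305951-60309325, where H3K4me3 covered 3375 and 3167 bp, H3K9ac 2596 and 2447 bp and H3K27ac only 1448 and 1585 bp. All 3 marks were present in both replicates at 5 of the 9.

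The other, chr5:136572691-136628793, began 5100 bp upstream of Cux1, which encodes a homeodomain transcription factor. ATAC-seq touched 6 of its 9 members and H3K36me2 5 of them, and all 9 had the 3 active marks in both replicates. The member nearest to Cux1, chr5:136572691-136575274, was one of the 3 without ATAC-seq, although H3K4me3 covered 2548 and 2540 bp of its 2584 bp. The widest, chr5:136618365-136621170, had H3K27ac over 2806 and 2779 bp and a single ATAC-seq overlap of 200 bp in replicate 1.

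The nearest gene lay a median of 11.5 kb away (quartiles 6.31 and 23.4 kb, range 3.007 to 570.154 kb), and within 50 kb for 1518 members (89.0%). It was protein-coding for 711 members (41.7%), a lncRNA for 629 (36.9%) and a pseudogene for 283 (16.6%). Among all 47042 autosomal genes these classes made up 43.9%, 26.4% and 18.9%. Strand was known for the nearest gene of 1004 members, and the gene faced the member with its start in 499 of them (49.7%). Restricted to protein-coding genes, it was 298 of 544 (54.8%).

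The 5 members farthest from any gene, among those with H3K4me3 in both replicates, lay 258948 to 570154 bp away. A neighbouring pair on chromosome 1 was the most remote. The first, chr1:141883517-141884885, was covered by H3K4me3 over 1355 and 1315 bp of 1369 bp, by H3K9ac over 704 and 499 bp and by ATAC-seq over 453 and 699 bp. The second, chr1:141897304-141898455, had ATAC-seq over 261 and 437 bp. Both were thus accessible and marked in every replicate in a gene desert. Of the other 3, chr12:96615221-96616433 had ATAC-seq in replicate 2 only (225 bp), chr1:103665778-103666206 in replicate 1 only (303 bp) and chr3:40058746-40059359 in neither.

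Genes of the T lineage stood next to members at 14 of 60 (23.3%), where 4.83% of all autosomal genes did. They were Ccr7, Cd4, Cd69, Cxcr4, Erg, Foxp1, Gata3, Gfi1, Il7r, Myb, Runx3, S1pr1, Tbx21 and Tcf7. Among genes with H3K4me3 at a gene end, it was 11 of 42 T lineage genes (26.2%) and 621 of 10011 protein-coding genes (6.20%). No distance limit was set for these genes or for all genes. Of the 14, Gata3 lay 174805 bp from its member, with Gm13218 nearer at 87932 bp, and Foxp1 lay 45822 bp away. The members next to Myb and Runx3, at 31454 bp and at 25065 bp or more, were nearer to Ahi1 and Clic4. None (0) of 11 B lineage and 0 of 11 myeloid genes on autosomes were next to a member. Lists of 11 genes are too short to tell a count of 0 from the 4.83% of all genes, so no contrast between lineages is drawn. The lists were drawn up with earlier results of these data known and were not tested, and being the next gene does not show that a member acts on it.

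Several of the 10 members nearest to a T lineage gene were short. Around Tcf7, which encodes the T lineage transcription factor TCF-1, the nearer member chr11:52287022-52287229 was only 208 bp wide, at a distance of 3638 bp, and rested on H3K4me3 of replicate 1 with H3K27ac and H3K9ac of replicate 2. The other, chr11:52299005-52300454, at 15621 bp, was stronger in replicate support: H3K4me3 covered 1385 and 1411 bp, ATAC-seq 453 and 663 bp and H3K36me2 1450 and 1195 bp of its 1450 bp. It was one of 3 candidate start sites among the 10, by the definition given below. The lncRNA gene Gm30217 lay nearer to it than Tcf7, at 7029 bp.

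Near Cd4, the coreceptor gene, chr6:124900204-124900575 (372 bp) had H3K4me3 in replicate 1 only, with ATAC-seq over 228 and 283 bp. It lay 11956 bp from Cd4 and 3783 bp from Lag3, an inhibitory receptor gene. At Cd69, an early activation marker, chr6:129284885-129285503 lay 9509 bp away with H3K4me3 over 619 and 527 bp and no ATAC-seq. The same pattern, active marks without ATAC-seq, was seen 5926 bp from Gfi1, a transcriptional repressor gene (chr5:107731732-107732008), and 7174 bp from Ccr7, the lymph node homing receptor gene (chr11:99136608-99137024). Those 2 members were 277 and 417 bp wide and were covered whole by H3K36me2 in both replicates. The lncRNA gene Gm42147 lay slightly nearer than Gfi1 to the first of them, at 5620 bp.

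The interleukin 7 receptor gene Il7r lay 13516 bp from chr15:9492226-9492642, where H3K4me3 was called in replicate 2 only. S1pr1, whose product guides exit from lymphoid organs, lay 20695 bp from chr3:115689383-115689737, likewise with H3K4me3 in replicate 2 only but ATAC-seq over 262 and 256 bp. Both therefore depend on 1 H3K4me3 list. Upstream of the chemokine receptor gene Cxcr4, at 21784 bp, chr1:128614084-128615087 was covered whole by both acetylations in both replicates, by H3K4me3 over 1004 and 916 bp and by ATAC-seq over 465 and 488 bp of its 1004 bp.

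Farther from its gene, 1 cluster of 6 members lay 30792 bp upstream of Erg, an ETS family gene known in early T cell progenitors. H3K36me2 touched all 6 and ATAC-seq 2. Its widest member, chr16:95620314-95623320, had H3K4me3 over 3007 and 2940 bp, H3K27ac over 3007 bp in both replicates and no ATAC-seq interval.

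A candidate unannotated start site was defined as a member of at least 1000 bp that was touched by H3K4me3, H3K27ac, H3K9ac and ATAC-seq intervals of both replicates. This held for 443 members (26.0%). At any position, 48.6% of all autosomal H3K4me3 peaks met the same conditions. The candidates had a median width of 1486 bp, and 265 of them (59.8%) touched H3K36me2. The nearest gene of a candidate lay a median of 10.7 kb away, and of the 263 with a strand 140 (53.2%) faced it with their start. No RNA data were used, so transcription from these positions was not measured.

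The 10 widest candidates measured 3162 to 3475 bp. In each, H3K4me3 covered nearly the whole peak and ATAC-seq a much shorter stretch of 339 to 1530 bp. The peaks are joined H3K4me3 intervals, and ATAC-seq intervals had medians of 418 and 428 bp in the 2 lists. This contrast is therefore largely given by how the peaks were made. The widest, chr12:69446137-69449611, lay 12184 bp from the lncRNA gene Gm40434, with H3K4me3 over 3439 and 3394 bp, H3K27ac over 2588 and 3043 bp and ATAC-seq over 668 and 641 bp. The longest ATAC-seq coverage was at chr12:54311684-54314979, 35844 bp from the lncRNA gene Gm35895, with 1227 and 1530 bp. The closest to a protein-coding gene, chr12:81017232-81020605, lay 6202 bp from Smoc1, which encodes a matrix protein. It had H3K4me3 over 3343 and 3342 bp, while H3K36me2 covered 3374 bp in replicate 1 and 405 bp in replicate 2. At chr11:66804418-66807800, 84639 bp from the nearest gene, acetylation was shorter than H3K4me3, with H3K27ac over 2112 and 2301 bp and H3K9ac over 1733 and 1827 bp of 3383 bp.

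**Figure D5:**
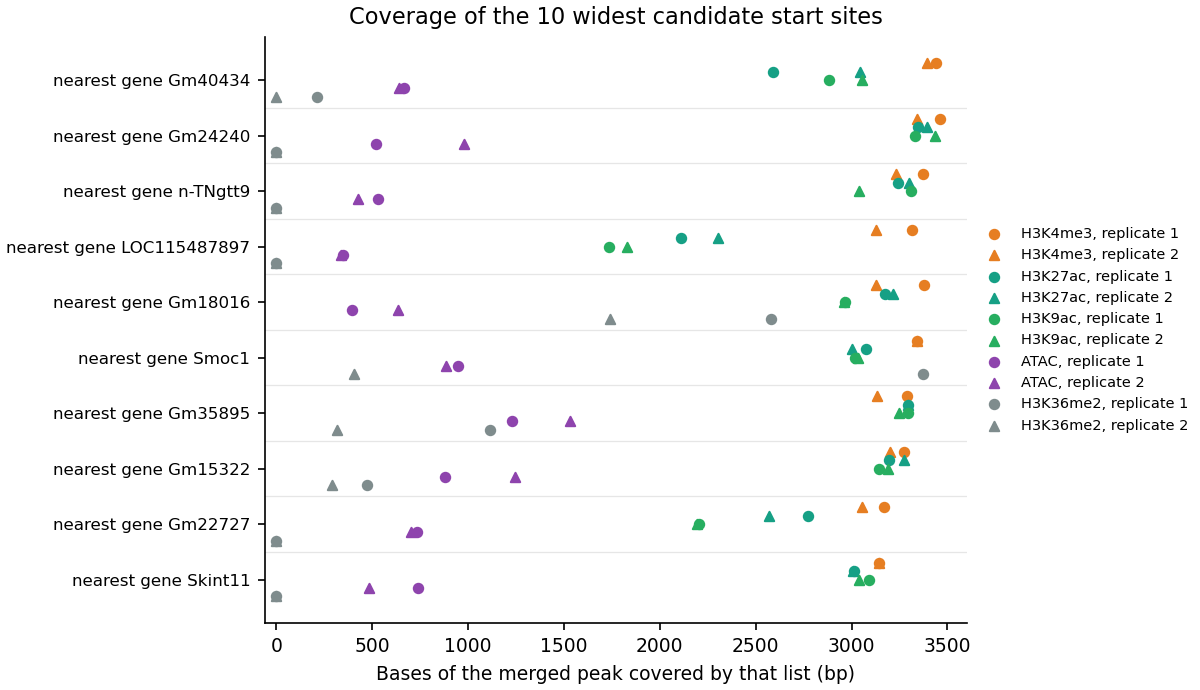
Bases of each of the 10 widest candidate start sites (x axis, bp) covered by the intervals of each list, with circles for replicate 1 and triangles for replicate 2. Sites are ordered by width from the top and labelled by the nearest gene. H3K4me3 covers 3057 to 3463 bp in every list and ATAC-seq 339 to 1530 bp, while H3K36me2 is absent from 5 of the 10 in both replicates.

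Some members faced an annotated start that had no H3K4me3 peak of its own. Strand and start were known from the RefSeq promoter table for 692 genes that faced a neighbouring member with their start, and 293 of these genes (42.3%) had an H3K4me3 peak in the promoter window. In the whole table it was 34.1% of the autosomal genes. For protein-coding genes the counts were 263 of 434 (60.6%) next to a member and 45.9% in the table, and for lncRNA genes 30 of 258 (11.6%) and 13.3%. A candidate was the nearest upstream member of 192 genes, of which 103 had no H3K4me3 at an annotated start and 81 had none in the gene or within 3 kb of it. H3K4me3 at a start was thus present in 46.4% of the 192, above the 34.1% of the whole table. Among protein-coding genes, none in or near the gene was found for 32 of 123 with a candidate and 7413 of 16457 in the table. Genes without the mark were therefore less frequent next to candidates. Within 20 kb of the start were 103 of the 192 genes, and 49 of these 103 had no H3K4me3 there.

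H3K36me2 covered a median of 27.7% of the stretch between the candidate and the start in the 103 genes without H3K4me3 at the start, and 48.6% in the other 89. The first group lay farther from their candidates, with a median of 20.8 kb against 13.6 kb, and the part of this distance in the difference was not tested. In 14 of the 103, H3K36me2 covered at least 90% of the stretch, and in 33 it covered none. Among the 89 genes with H3K4me3 at the start, these counts were 18 and 14, so covered stretches were not particular to the first group.

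The promoters of 3 such genes are shown because they differ in base composition while none of them had an H3K4me3 peak. They span 250 bases before to 50 bases after the start in RefSeq (GRCm38.p6), read 5′ to 3′ on the strand of the gene, with every CG in capitals. The motif searched was CG, which reads the same on both strands. Windows with an H3K4me3 peak had a median of 22 CG and those without 4, over 10335 and 21061 windows. Sp1 (chr15:102406066-102406365, plus strand), whose product binds GC-rich promoters, had 19 CG, Tbx21 (chr11:97115282-97115581, minus strand), the gene of the helper T cell factor T-bet, had 21, and the first start of Tnfrsf9 (chr4:150919905-150920204, plus strand), the gene of the costimulatory receptor 4-1BB, had 4:
Sp1: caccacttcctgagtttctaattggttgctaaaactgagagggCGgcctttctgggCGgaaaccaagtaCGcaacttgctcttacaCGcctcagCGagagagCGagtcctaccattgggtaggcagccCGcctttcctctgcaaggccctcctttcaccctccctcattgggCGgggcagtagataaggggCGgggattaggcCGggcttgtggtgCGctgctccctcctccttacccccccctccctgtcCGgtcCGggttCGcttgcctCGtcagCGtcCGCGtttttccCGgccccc
Tbx21: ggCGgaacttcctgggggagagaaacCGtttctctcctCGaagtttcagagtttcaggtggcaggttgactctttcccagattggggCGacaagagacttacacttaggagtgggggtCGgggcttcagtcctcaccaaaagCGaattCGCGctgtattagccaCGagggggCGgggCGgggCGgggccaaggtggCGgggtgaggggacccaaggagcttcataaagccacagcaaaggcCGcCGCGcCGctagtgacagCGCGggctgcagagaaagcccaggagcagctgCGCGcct
Tnfrsf9: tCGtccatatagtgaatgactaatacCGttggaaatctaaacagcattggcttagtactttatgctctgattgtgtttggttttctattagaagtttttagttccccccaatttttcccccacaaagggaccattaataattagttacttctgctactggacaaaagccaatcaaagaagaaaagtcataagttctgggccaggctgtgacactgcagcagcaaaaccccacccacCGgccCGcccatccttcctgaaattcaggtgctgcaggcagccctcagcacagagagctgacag

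Upstream of Sp1, the candidate chr15:102398542-102400879 ended 5436 bp before the gene. H3K4me3 covered 2219 and 2338 bp of its 2338 bp, H3K27ac 2338 bp in both replicates, H3K9ac 2338 and 2319 bp and ATAC-seq 645 and 614 bp. The presence of these features in both replicates follows from the candidate definition, and Sp1 was picked for a start without H3K4me3. In Sp1 or within 3 kb of it, 0 peaks of H3K4me3, H3K27ac, H3K9ac or ATAC-seq were called. Peak lists without reads do not show whether signal was absent at the CG-rich start of Sp1, so the missing peaks do not show that it was inactive. H3K36me2 covered 937 and 679 bp of the candidate and all (100%) of the stretch from it to the gene. It was common on this chromosome, where it touched 63.5% of the members, against a mean of 48.0% over autosomes.

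At Tbx21, the candidate chr11:97125733-97127835 lay 10401 bp upstream, with H3K4me3 over 2078 and 2101 bp, H3K9ac over 2007 and 2095 bp and ATAC-seq over 257 and 231 bp of its 2103 bp. Tbx21 also had no peak of H3K4me3, either acetylation or ATAC-seq in the gene or within 3 kb, but here H3K36me2 covered none (0%) of the stretch between them. The gene Tbkbp1 lay nearer on the other side, at 8335 bp, and faced the candidate with its far end.

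The candidate upstream of Tnfrsf9, chr4:150913546-150915774, lay 4380 bp away and had ATAC-seq over 781 and 805 bp of its 2229 bp. None of the 2 starts of Tnfrsf9 in the table had H3K4me3, although 2 H3K4me3 peaks lay elsewhere in the gene or within 3 kb. Unlike Sp1 and Tbx21, Tnfrsf9 also had 2 peaks each of H3K27ac, H3K9ac and ATAC-seq there. H3K36me2 covered none (0%) of the stretch from the candidate to the gene. Mir155hg, the host gene of miR-155, likewise had no H3K4me3 at its start, with 1 H3K4me3 peak and 0 ATAC-seq peaks in the gene or within 3 kb. Its candidate, 8748 bp upstream (chr16:84702551-84704274), was covered by H3K4me3 over 1711 and 1703 bp and by ATAC-seq over 456 and 599 bp.

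Among the genes with a candidate close to the start, of which only some are named, the distance was 3007 bp at Zdhhc25, a member of the palmitoyltransferase family (chr15:88595867-88597294), 3399 bp at the lncRNA gene Dubr (chr16:50736173-50737241) and 4104 bp at Crhbp, which encodes a binding protein of corticotropin-releasing hormone (chr13:95448936-95451013). None of these 3 genes had H3K4me3 within 3 kb. At Zdhhc25, H3K36me2 covered the candidate whole (1428 bp in both replicates) and all of the stretch to the gene, at Crhbp 52.0% of it and at Dubr none. ATAC-seq covered only 54 and 60 bp of the Crhbp candidate. The interferon gamma gene Ifng had a candidate 40227 bp upstream (chr10:118399498-118400818), with ATAC-seq over 320 and 467 bp of 1321 bp, and no H3K4me3 in the gene or within 3 kb. These genes were chosen after their values were seen, for their short distance or their role in T cells.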

How the data were processed

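The authors aligned reads of EL4 ChIP-seq and ATAC-seq libraries with STAR 2.5, kept unique alignments, treated duplicates with Picard and called peaks per replicate, with macs2 for H3K4me3, H3K27ac, H3K9ac and ATAC-seq and with Epic for the broad marks H3K36me2 and H3K27me3. The build is GRCm38 per the labels. The deposited lists, 12 in all, hold the chromosome, start and end of each interval in bp and no score or count, so depth is unknown. Libraries of input DNA and RNA were left aside.

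Overlapping or adjoining intervals of the 2 replicates were joined into merged peaks, and touching means at least 1 bp. Positions are 1-based. Genes, strands, promoters and microRNAs are those of RefSeq GRCm38.p6. The gene table holds no strand, and strands came from the promoter and microRNA tables, which cover 28030 genes and none on chromosome 18. Shares of peak sets were compared per autosome by 2-sided sign-flip permutation over 19 autosomes (100000 resamples, seed 1), with Benjamini-Hochberg adjustment over 6 tests and a threshold of 0.05. The 2 planned tests of CpG content were not run, since they need a genome. Overlap counting was checked on simulated intervals against bedtools 2.31.1 in 5 steps with identical results. Python 3.11.15, numpy 2.4.6, pandas 2.3.3 and scipy 1.17.1 were used.

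Named regions were the 10 widest candidates, the 5 members farthest from genes with both H3K4me3 replicates, members of the 3 largest clusters, the 10 members nearest to a T lineage gene and those at the limits of the rule. MicroRNA loci, genes with facing starts and the Erg cluster were added after their values were seen. The members, the lists of genes and the comparisons were chosen with earlier results of these data known.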

Additional observations from a re-analysis of the deposited data

How the results depend on the processing

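No paired analysis was possible because no groups of samples were compared, so replicate numbers have nothing to pair. The sign-flip tests pair sets of peaks within autosomes instead. The deposited lists give no depth, so weak peaks cannot be told from strong ones, and every value depends on the peak calls. The number of members became 962 with peaks more than 10 kb from every gene, 2970 with protein-coding genes only and 991 with widths of 500 to 1500 bp. The ATAC-seq share of members was 53.4% with merged peaks touched by both replicates, 56.3% with an overlap of 200 bp, 67.7% with intervals within 1000 bp merged and 50.2% at the 200 bp around the midpoint, and 55.3 to 59.7% with either replicate left out. The H3K36me2 share was 41.4% with merged peaks touched by both replicates, whose intervals need not both reach the member. It was 44.1% with an overlap of 200 bp, 44.2% at 500 to 1500 bp and 36.95% at the midpoint, and 35.4 to 39.1% without either replicate. Under the same permutation test, the lower ATAC-seq share than at gene ends (-31.2 to -6.48 points) and the lower H3K36me2 share than in gene interiors (-14.8 to -12.0 points) passed the threshold under all 12 alternatives. The ATAC-seq difference from gene interiors passed it with peaks of both replicates (-5.26 points) and with merging within 1000 bp (-4.47), and turned to 0.348 at the midpoint, where it did not pass. The H3K36me2 difference from gene ends turned to 1.30 points at 500 to 1500 bp and 0.586 with width weighting, neither past the threshold, and to 6.04 at the midpoint, past it. The surplus of H3K27ac neighbours over gene ends was 0.592 at 500 to 1500 bp, 0.241 with intervals within 1000 bp merged and 0.185 with width weighting, the last not past the threshold. The deficit against gene interiors was -0.045 with that merging and passed the threshold beyond 10 kb from genes (-0.969). It also passed without the 3 largest clusters (-0.775), but members alone were left out there and no gene-interior peaks, so this pass decides nothing. Width weighting and the omission of clusters were added once the data had been seen. The cause of each change was not tested, and the CpG alternatives were not run.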
